A study of Mus musculus with 2 samples.

Results

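The genes described here encode carriers for glucose, amino acids and monocarboxylates such as lactate. They are the 103 protein-coding genes of the mouse annotation whose symbols start with Slc1a, Slc2a, Slc3a, Slc5a, Slc6a, Slc7a, Slc16a, Slc36a, Slc38a or Slc43a, out of 21783 protein-coding genes in all. The 10 prefixes select 1 gene that is no carrier, Slc7a6os, which is named for lying beside Slc7a6 on the opposite strand. The study measured N6-methyladenosine (m6A), an internal mark of mRNA, by sequencing RNA fragments bound by an anti-m6A antibody (MeRIP-seq) from whole uterus of wild-type C57BL/6 mice. The immunoprecipitated (IP) group held 1 library, labelled as an equal pool of uteri of gestation days 4 and 8, and the input group held 1 library of whole uterus made without antibody. The label of the input names no gestation day and no pooling, and the peak names mention day 8 alone. There were no replicates, so no test between groups was possible. All values are descriptions of these libraries alone, and the 2 days cannot be separated.

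Carriers of these families move nutrients across cell membranes. Slc2a proteins let hexoses pass down their gradient, while Slc5a and Slc6a proteins couple their cargo to sodium. The best known Slc16a proteins move lactate, pyruvate and ketone bodies, and the remaining families are known mainly for moving amino acids at the plasma membrane or the lysosome. The decidua, the tissue that uterine stroma forms around the embryo, is known for high glucose uptake and lactate output. In mammals, m6A is laid down mostly near stop codons, in 3′ untranslated regions and in long internal exons, and it is known to affect mRNA stability and translation.

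A peak is a region that the authors' caller found enriched in the IP library over the input, and a gene was counted when a peak summit lay inside its span, exons and introns alike. Of the 103 genes, 59 carried a peak (57.3%), beside 55.7% of all protein-coding genes and 153 of 272 (56.25%) other protein-coding Slc genes. The share among the carriers is thus close to the background and is no result about them. They held 124 peaks, with a median of 2 per peak-carrying gene, the same as over all protein-coding genes. A summit in no other annotated gene was present in 54 members (52.4%), beside 51.1% of protein-coding genes. The other 5 peak-carrying members, Slc3a1, Slc5a3, Slc5a10, Slc7a15 and Slc16a3, had only summits that lay in a second gene too. The list has no strand, so the source of those peaks cannot be told apart. In whole tissue, fewer cells of a type and less RNA per cell cannot be told apart, and the absence of a peak can mean no mark, no expression or too few fragments. All 15 genes listed as markers of the uterine wall (Pgr, Esr1, Hoxa10, Hoxa11, Msx1, Foxa2, Acta2, Myh11, Des, Pecam1, Cdh5, Epcam, Krt8, Vim and Hand2) carried a peak, beside 55.7% of all protein-coding genes. The list was chosen with earlier results of these data known, so the count is no check of the tissue. All summits of Hoxa11 and some of Msx1 lay in another gene too.

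**Figure D1:**
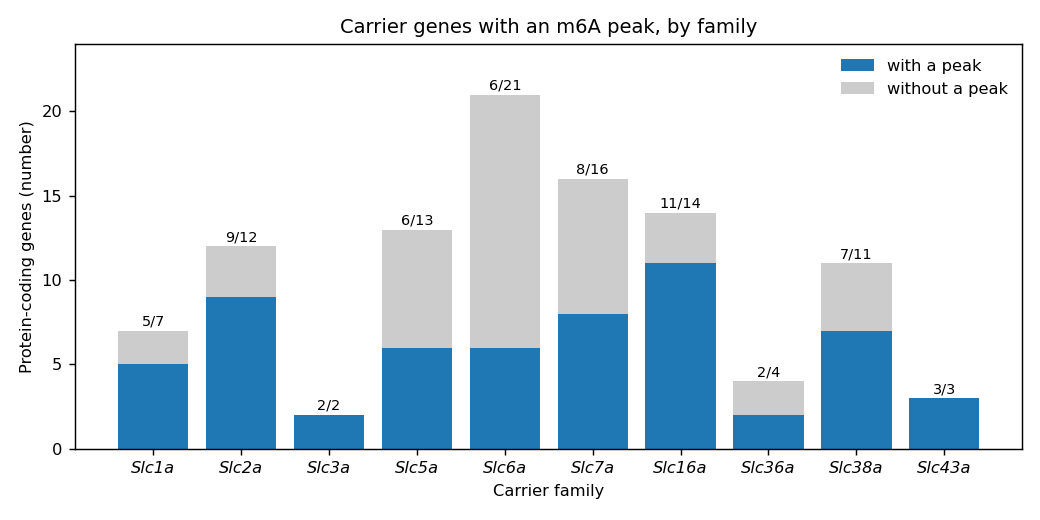
Number of carrier genes (vertical axis) in each family (horizontal axis), split into genes with a peak (blue) and without (grey), with the count above each bar. Slc6a had the smallest share with a peak, 6 of 21, and Slc3a and Slc43a had peaks in every gene, 2 of 2 and 3 of 3.

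The families differed in how many members carried a peak. Peaks were found in 11 of 14 Slc16a genes (78.6%), 9 of 12 Slc2a genes (75%), 5 of 7 Slc1a genes (71.4%) and 7 of 11 Slc38a genes (63.6%). They were found in 8 of 16 Slc7a genes, 2 of 4 Slc36a genes and 6 of 13 Slc5a genes (46.2%). Slc6a, the family of the plasma membrane carriers for neurotransmitters, taurine, creatine and some amino acids, had peaks in 6 of 21 genes (28.6%). Over the 6 amino acid families outside Slc6a, 27 of 43 genes had a peak (62.8%), counting Slc7a6os, which is no carrier. Counting only summits with at least 20 IP fragments changed this order. Slc6a stayed lowest, at 19.0%, followed by 28.6% in Slc1a, 30.8% in Slc5a and 33.3% in Slc2a. The share was 37.5% in Slc7a, 45.5% in Slc38a and 50% in Slc16a and Slc36a. These are whole families and not samples of a condition, and the differences between them were not tested. The share of all protein-coding genes with a summit of at least 20 IP fragments was not computed. The carriers with and without a peak had similar lengths. The median gene span was 30.5 kb with and 33.8 kb without a peak. Over all protein-coding genes these medians were 25.1 kb with and 9.46 kb without a peak.

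Fold enrichment is the authors' ratio of IP fragments to local background at the summit, with 1 fragment added to both. The range in parentheses after a fold is its exact 95% Poisson interval, which treats the background as known and covers counting error only. The 124 carrier peaks had a median of 5.66-fold and quartiles of 4.34 and 8.04, beside 6.10-fold, 4.55 and 8.32 over all peaks in protein-coding genes. They ranged from 1.79-fold in Slc6a6 to 25.3-fold in Slc43a1. Taking the highest peak of each gene, the median was 7.47-fold for the 59 carriers, 6.90-fold for other Slc genes and 8.04-fold for all peak-carrying protein-coding genes. A peak of at least 10-fold was present in 11 of 103 members (10.7%), beside 26 of 272 other Slc genes and 17.5% of all protein-coding genes. At least 2 peaks were present in 31 members (30.1%), beside 77 of 272 other Slc genes and 36.7% of all protein-coding genes.

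The depth behind these values varied widely. The median carrier summit was covered by 27 IP fragments (quartiles 13 and 58, range 5 to 170). The median was also 27 over peaks in other Slc genes, and 32 over all peaks in protein-coding genes. Under 20 IP fragments were present at 53 of the 124 summits (42.7%), beside 37.6% in other Slc genes and 28.5% over all protein-coding peaks. The local background, which the caller estimates from the input around the summit, was 3.61 scaled fragments at the median. At 11 summits (8.87%) it stood at the genome-wide level of 0.462, where the input gave no local estimate above that level. This share was 8.58% in other Slc genes and 4.30% over all protein-coding peaks. Among the 11 carrier summits were the highest peaks of 7 members, Slc1a6, Slc2a5, Slc5a4b, Slc7a5, Slc16a5, Slc16a10 and Slc43a1. The highest local background was 43.8, at the end of Slc2a12.

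**Figure D2:**
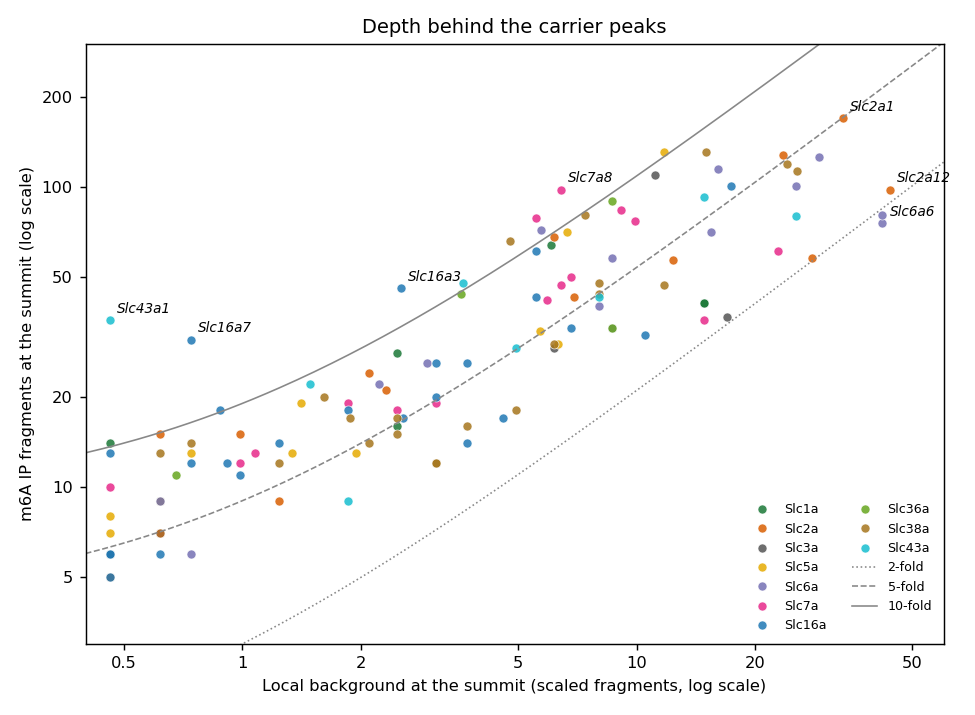
IP fragments at each of the 124 carrier summits (vertical axis, log scale) against the local background there in scaled fragments (horizontal axis, log scale), with 1 point per peak coloured by family and grey lines at 2-fold, 5-fold and 10-fold. Slc43a1 and Slc16a7 stand far above the 10-fold line at low background, with 36 and 31 fragments, while the peak at the end of Slc2a1 has the most fragments, 170, over a background of 33.3.

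Among the facilitative sugar carriers of Slc2a, the genes for GLUT1, GLUT3 and GLUT4 had peaks of moderate fold, over backgrounds that differed widely. Slc2a1 encodes the basal glucose carrier GLUT1, which is needed for decidualization (NCBI Gene 20525, mm10 chromosome 4, 119108745 to 119137330). It held 3 peaks. The best covered lay 334 bases before the end of the gene, with 170 IP fragments over a background of 33.3, or 4.98-fold (4.26 to 5.78). A second, 174 bases after the start, reached 6.65-fold (4.23 to 10.001) from 21 fragments over 2.31, and the last stood at 2.05-fold. The intervals of the first and second peak overlap, so the order of their folds is not resolved, although their fragment counts differ widely. Slc2a3, for the high-affinity carrier GLUT3, had 1 peak of 4.34-fold (3.31 to 5.61) from 57 fragments. Slc2a4, for the insulin-responsive carrier GLUT4, had 1 peak of 4.47-fold (2.29 to 8.09) from only 9 fragments.

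Slc2a12, for the carrier GLUT12, held 4 peaks, the most of its family (NCBI Gene 353169, chromosome 10, 22644990 to 22703880). Read from start to end of the gene they had 68, 43, 128 and 98 IP fragments. Their folds in the same order were 9.62 (7.498 to 12.2), 5.56 (4.06 to 7.44), 5.27 (4.41 to 6.26) and 2.21 (1.796 to 2.69). The first and the last do not overlap in their intervals, and the background was 6.18 at the first and 43.8 at the last. Slc2a10, for the carrier GLUT10, reached 9.89-fold (5.81 to 15.9) from 15 fragments, the highest fold in Slc2a. Slc2a8, for the intracellular carrier GLUT8, reached 8.07-fold (5.28 to 11.8) with its summit 246 bases before the gene end. The inositol carrier gene Slc2a13, the fructose carrier gene Slc2a5 and the urate carrier gene Slc2a9 had 1 peak each, of 8.05-fold, 4.79-fold and 4.95-fold, from 15, 6 and 7 fragments. No peak was listed in Slc2a2, Slc2a6 or Slc2a7. In this family 5 of the 9 highest peaks rest on 15 fragments or fewer.

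The sodium-coupled family Slc5a had its best covered peaks in genes that are not glucose carriers or that share their locus. Slc5a3 encodes the sodium and myo-inositol cotransporter, which cells raise under osmotic stress (NCBI Gene 53881, chromosome 16, 92058322 to 92087473). Its 1 peak was 3116 bases wide and reached 10.4-fold (8.68 to 12.3) from 131 fragments, but the summit also lay in Mrps6, whose span overlaps it. Slc5a6, for the multivitamin carrier of biotin and pantothenate, had 3 peaks in its own span alone, of 8.31-fold, 6.00-fold and 4.25-fold from start to end, with 19, 13 and 30 fragments. Among summits with at least 20 fragments, its highest fold was 4.25. Slc5a5, for the iodide carrier, had 1 peak of 5.09-fold (3.55 to 7.09) from 33 fragments. Of the sugar carriers, Slc5a2, known from the kidney tubule, had 2 peaks. Its highest, at 9.39-fold (7.36 to 11.8), lay in Rusf1 as well, and the one in Slc5a2 alone reached 4.76-fold (2.70 to 7.90) from 13 fragments. All 3 summits of Slc5a10 lay in Fam83g too, and Slc5a4b had 1 peak of 6.16-fold from 8 fragments. Slc5a1, for the intestinal glucose carrier SGLT1, had no peak, nor did Slc5a4a, Slc5a7, Slc5a8, Slc5a9, Slc5a11 and Slc5a12.

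The monocarboxylate carriers held the second highest peak of all members. Slc16a7, for the high-affinity lactate and pyruvate carrier MCT2 (NCBI Gene 20503, chromosome 10, 125219270 to 125389586), had a single called region, 125228029 to 125228445, with 18.4-fold enrichment (12.7 to 25.8) from 31 fragments over a background of 0.741. Slc16a3, for MCT4, the lactate exporter of glycolytic cells (NCBI Gene 80879, chromosome 11, 120948484 to 120959000), had 1 peak of 13.4-fold (9.85 to 17.7) from 46 fragments, 967 bases before its end. That summit also lay in Csnk1d, which encodes a casein kinase. Slc16a1, for the widely expressed MCT1 (NCBI Gene 20501, chromosome 3, 104638664 to 104658462), had 3 peaks of 5.14-fold, 2.87-fold and 5.58-fold from start to end. The last, 2919 bases before the end, was the best covered, with 101 fragments over 17.3 and an interval of 4.55 to 6.76, which lies below those of Slc16a7 and Slc16a3. Slc16a8 had no peak.

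Most other Slc16a genes carried peaks as well. Slc16a10, for a carrier of aromatic amino acids, had 4 peaks, of which 3 lay between 15146 and 16836 bases from its end. The highest of these was 9.58-fold (5.42 to 15.9) from 13 fragments at the genome-wide background. Slc16a6 had 4 peaks of up to 9.45-fold (7.27 to 12.1) from 61 fragments. Slc16a11 and Slc16a13 are neighbours on chromosome 11. Slc16a11 had 1 peak of 10.1-fold (6.22 to 15.7) from 18 fragments, and Slc16a13 had 3 peaks of up to 6.71-fold (4.90 to 8.98) from 43 fragments. Slc16a9, Slc16a4 and Slc16a5 reached 6.60-fold, 5.06-fold and 4.79-fold. The 2 peaks of Slc16a5 rested on 6 fragments each. Slc16a12 and Slc16a14 had no peak.

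**Figure D3:**
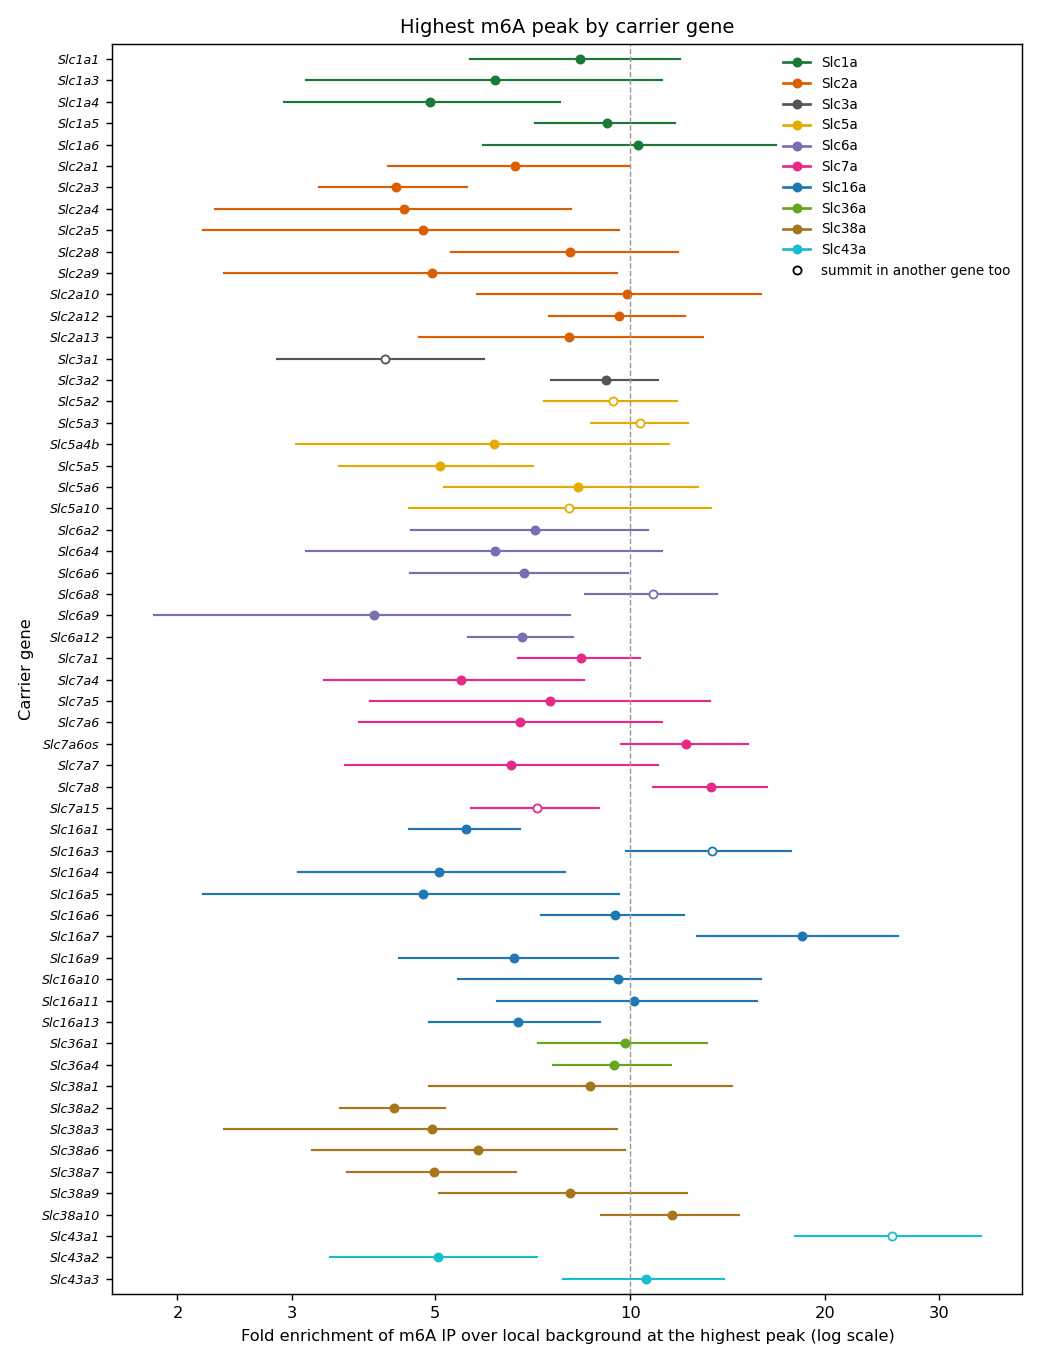
Fold enrichment at the highest peak (horizontal axis, log scale) of 58 of the 59 carrier genes with a peak (vertical axis), coloured by family. Bars are exact 95% Poisson intervals for counting error, open points are summits that lie in another gene too, and the dashed line marks 10-fold. Of those drawn, only Slc43a1, Slc16a7 and Slc7a8 have their whole interval above 10-fold.

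The heavy chains of Slc3a and the light chains of Slc7a form heterodimers that exchange large neutral or cationic amino acids. Slc3a2 encodes the heavy chain CD98 (NCBI Gene 17254, chromosome 19, 8706882 to 8723369). It held 1 peak of 9.16-fold (7.54 to 11.0) from 110 fragments and another of 2.12-fold (1.51 to 2.90) from 37 fragments, and their intervals do not overlap. Slc7a8, for the light chain LAT2 (NCBI Gene 50934, chromosome 14, 54722215 to 54781886), reached 13.3-fold (10.9 to 16.2) from 98 fragments at its start. Its other peak, 1329 bases before the end, stood at 2.60-fold (1.998 to 3.33) from 61 fragments over 22.9. Slc7a5, for the leucine carrier LAT1, had a peak of 6.54-fold (4.89 to 8.59) from 50 fragments near one end of its span. Another, 55 bases from the opposite end, reached 7.53-fold (3.96 to 13.3) from 10 fragments at the genome-wide background. The interval of this highest Slc7a5 peak overlaps that of Slc7a8. Slc7a6, for a light chain that exchanges cationic for neutral amino acids, had 3 peaks of 6.75-fold, 2.34-fold and 6.21-fold from start to end.

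The remaining light chains had 1 peak or none. Slc7a7 reached 6.54-fold (3.62 to 11.0) from 12 fragments, and the 7.17-fold peak of Slc7a15 lay in a long non-coding RNA gene as well. No peak was listed in Slc7a11, which encodes the cystine and glutamate exchanger, or in Slc7a9, Slc7a10, Slc7a12 and Slc7a13. In the cationic subgroup, Slc7a1, for the arginine carrier CAT1, had 1 peak of 8.38-fold (6.71 to 10.4) from 84 fragments, 4727 bases before its end. Slc7a4 had 2 peaks of 5.48-fold and 4.95-fold, while Slc7a2, Slc7a3 and Slc7a14 had none. Slc3a1, for the heavy chain of the renal cystine carrier, had 1 peak of 4.18-fold whose summit also lay in Prepl. Slc7a6os, which encodes no carrier, reached 12.2-fold (9.69 to 15.2) from 79 fragments and held 4 peaks.

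In Slc1a, peaks were found in the carriers for neutral amino acids and in 3 of the glutamate carriers. Slc1a5, for the glutamine carrier ASCT2 (NCBI Gene 20514, chromosome 7, 16781334 to 16798274), had 3 peaks. The highest lay 227 bases from one end of the span and reached 9.22-fold (7.13 to 11.7) from 64 fragments, and the other two stood at 2.65-fold (1.92 to 3.58) near the opposite end, with 41 fragments each. Slc1a4, for the serine and alanine carrier ASCT1, had 1 peak of 4.90-fold. The glutamate carrier gene Slc1a1 reached 8.36-fold (5.65 to 11.9) from 28 fragments. Slc1a6 and Slc1a3, for glutamate carriers best known from the brain, reached 10.3-fold (5.92 to 16.8) from 14 fragments and 6.18-fold (3.16 to 11.2) from 9. The Slc1a6 peak stood at the genome-wide background. In the 4 of these genes with a known strand, each had 1 summit, between 266 and 2117 bases before the end. Slc1a2 and Slc1a7 had no peak.

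Slc38a, the sodium-coupled carriers of glutamine, alanine and other small neutral amino acids, held the genes with the most peaks. Slc38a1, for the plasma membrane carrier SNAT1 (NCBI Gene 105727, chromosome 15, 96571418 to 96643438), had 7 peaks of 3.20-fold to 8.65-fold, with 13 to 47 fragments. The 8.65-fold peak had 13 fragments, and the highest with at least 20 fragments reached 4.32-fold. Of the 7, 4 summits lay within 2767 bases of each other inside the gene. Slc38a10 (NCBI Gene 72055, chromosome 11, 120103951 to 120151351) had 6 peaks, 5 of them within 10 kb of its end. From start to end their folds were 8.62, 5.43, 4.78, 9.75, 11.6 and 8.28, from 14, 48, 119, 81, 66 and 131 fragments. The 11.6-fold peak (9.004 to 14.7) and the 4.78-fold peak (3.97 to 5.72) do not overlap in their intervals.

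The other Slc38a genes had fewer peaks. Slc38a2, for the starvation-induced carrier SNAT2, had 1 peak of 4.31-fold (3.56 to 5.18). It was well covered, with 113 fragments over a background of 25.4. Slc38a9, for the lysosomal arginine sensor upstream of mTORC1, had 3 peaks, with the highest, 8.06-fold (5.07 to 12.2) from 20 fragments, 587 bases before its end. The lysosomal glutamine carrier gene Slc38a7 had 3 peaks of up to 4.98-fold (3.65 to 6.65). Slc38a6 and Slc38a3 had 1 each, of 5.82-fold from 12 fragments and 4.95-fold from 7. Slc38a4, which is imprinted and known from placenta, had no peak, nor did Slc38a5, Slc38a8 and Slc38a11.

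The small families Slc36a and Slc43a included the highest carrier peak. Slc36a1, for the lysosomal proton-coupled carrier PAT1, reached 9.82-fold (7.20 to 13.1) from 44 fragments, 2701 bases before its end. Slc36a4 had 3 peaks, of which the highest, 9.43-fold (7.61 to 11.6) from 90 fragments, lay 4033 bases before the end. Slc36a2 and Slc36a3 had none. Slc43a1, for the branched-chain amino acid carrier LAT3 (NCBI Gene 72401, chromosome 2, 84838855 to 84863586), reached 25.3-fold (17.9 to 34.8) at 84839781 to 84840357. By fold this peak ranks 171 among all 38366 peaks. It had 36 fragments at the genome-wide background of 0.462, and its summit also lay in the long non-coding RNA gene D930003E18Rik. The other Slc43a1 peak, in no other gene, reached 9.27-fold (5.96 to 13.8), 503 bases before the end. Slc43a3, for a purine base carrier, had 4 peaks of up to 10.6-fold (7.86 to 14.0), and Slc43a2, for LAT4, had 2 peaks of up to 5.05-fold (3.44 to 7.18).

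The 6 Slc6a members with peaks carry creatine, taurine, betaine and GABA, noradrenaline, serotonin and glycine. Slc6a8, for the creatine carrier (NCBI Gene 102857, chromosome X, 73673133 to 73682502), had 3 peaks. The highest reached 10.8-fold (8.52 to 13.6) from 72 fragments at a summit that lay in a long non-coding RNA gene as well. The other Slc6a8 peaks, towards the opposite end of the span, had 81 and 101 fragments but only 1.91-fold (1.52 to 2.36) and 3.88-fold (3.16 to 4.70), over backgrounds of 42.0 and 25.3. Slc6a6, for the taurine carrier (NCBI Gene 21366, chromosome 6, 91684048 to 91759063), had 4 peaks with 26, 40, 58 and 76 fragments from left to right along the chromosome. Their folds in that order were 6.85, 4.54, 6.12 and 1.79, and the background at the last was 42.0. Slc6a12, for the betaine and GABA carrier, had peaks of 6.80-fold (5.62 to 8.15) from 115 fragments and 4.23-fold (3.53 to 5.03) from 126.

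Slc6a2, for the noradrenaline carrier, had 3 peaks of up to 7.14-fold (4.59 to 10.6), with 22, 34 and 71 fragments. Slc6a4, for the serotonin carrier, and Slc6a9, for a glycine carrier, had 1 thin peak each, of 6.18-fold from 9 and 4.02-fold from 6 fragments. The Slc6a genes without a peak included Slc6a3, Slc6a5, Slc6a7, Slc6a11, Slc6a13, Slc6a14, Slc6a15, Slc6a16, Slc6a17, Slc6a18, Slc6a19, Slc6a20a, Slc6a20b and Slc6a21. They include carriers of dopamine, GABA, glycine and proline known from nerve cells.

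The position of the summits could be read along 42 of the 59 peak-carrying members, those whose strand was given by a RefSeq start site. Of their 78 summits, 11 (14.1%) lay within 1000 bases of an annotated start and 39 more (50%) lay within 5000 bases of the gene end. The other 28 (35.9%) lay elsewhere. Over all protein-coding genes with a known strand these shares were 12.8%, 39.3% and 47.8%. Among other Slc genes, 17.9% lay within 1000 bases of a start and 33.6% in neither class. In the share near a start the carriers stood nearer to all protein-coding genes. In the share in neither class they stood nearer to the other Slc genes. No difference was tested, and no exon positions were used. Over all 124 summits, on either strand, 37 (29.8%) lay within 1000 bases of the nearer gene end, beside 25.2% for all protein-coding genes and 36.3% for other Slc genes.

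**Figure D4:**
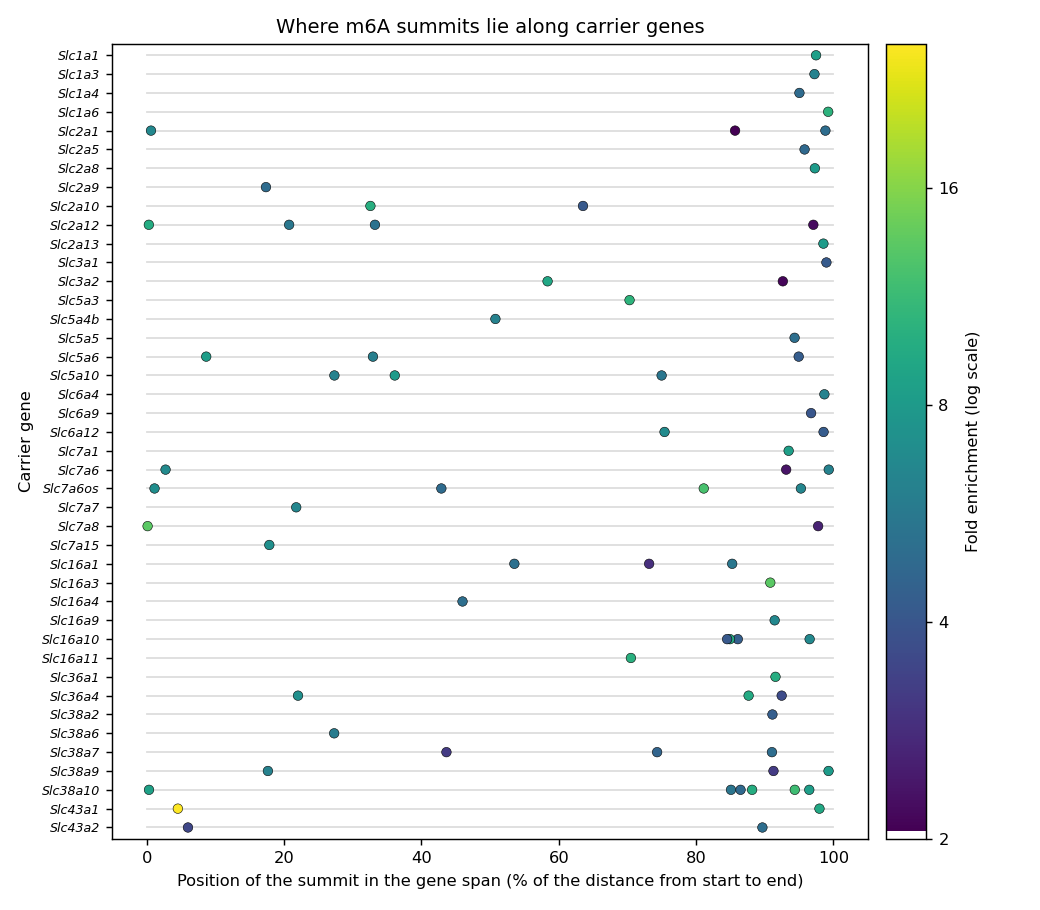
Position of each of 78 summits along the gene span, in percent of the distance from start to end (horizontal axis), for the 42 carrier genes with a known strand (vertical axis), coloured by fold enrichment on a log scale. Summits sit close to both ends in Slc2a1, Slc7a6, Slc7a8 and Slc38a10.

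Peaks at starts and peaks at ends differed in coverage more than in fold. The 11 start peaks had a median of 8.31-fold, 19 IP fragments and a background of 1.85. The 39 end peaks had medians of 6.18-fold, 34 fragments and 5.56. Over all protein-coding genes the same medians were 7.19-fold, 22 fragments and 1.85 at starts, and 5.56-fold, 41 fragments and 6.18 at ends, the same order in each measure. In 10 of the 11 genes the summit lay after the start, by 68 to 660 bases. Only summits inside gene spans were counted, so a summit before a start at the edge of the span could not appear. This count is thus no result about the carriers, and it was not made over all protein-coding genes. The start peak was the highest of its gene in 8 of the 11 (72.7%), beside 55.9% of start peaks over all protein-coding genes. These were Slc7a7, with 1 peak, and Slc2a1, Slc2a12, Slc3a2, Slc5a6, Slc7a6, Slc7a8 and Slc43a1, with several. In Slc2a1, Slc5a6 and Slc7a6 its interval overlaps that of another peak, so the order there is not resolved.

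The windows around 5 of these starts are shown as examples in which the highest peak of a gene runs into the window. Slc7a6, where this is also so, is not printed. Windows of 300 bases were taken from RefSeq (GRCm38.p6), which held 1 or more for 75 of the 103 members, and a peak overlapped a window of 8 members. For Slc16a1 that peak had its summit outside every gene, so it is not counted among the carrier peaks. The share of all genes whose window a peak overlaps was not computed. Each window is written 5′ to 3′ on the strand of the gene, from 250 bases before the start to 50 bases from the start on, and capitals mark the bases covered by the peak. They lie at chr2:84840073-84840372 (plus strand) for Slc43a1, chr14:54781837-54782136 (minus) for Slc7a8 and chr19:8713848-8714147 (minus) for Slc3a2. Those of Slc2a12 and Slc2a1 lie at chr10:22644761-22645060 and chr4:119108495-119108794, both on the plus strand.
Slc43a1: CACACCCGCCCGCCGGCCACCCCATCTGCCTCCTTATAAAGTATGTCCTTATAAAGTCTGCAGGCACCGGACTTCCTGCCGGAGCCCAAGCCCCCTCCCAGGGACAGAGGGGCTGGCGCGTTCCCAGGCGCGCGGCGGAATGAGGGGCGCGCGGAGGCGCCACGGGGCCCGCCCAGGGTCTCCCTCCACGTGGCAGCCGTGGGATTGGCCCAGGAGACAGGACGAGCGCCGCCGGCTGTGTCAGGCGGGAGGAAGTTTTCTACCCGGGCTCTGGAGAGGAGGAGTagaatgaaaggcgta
Slc7a8: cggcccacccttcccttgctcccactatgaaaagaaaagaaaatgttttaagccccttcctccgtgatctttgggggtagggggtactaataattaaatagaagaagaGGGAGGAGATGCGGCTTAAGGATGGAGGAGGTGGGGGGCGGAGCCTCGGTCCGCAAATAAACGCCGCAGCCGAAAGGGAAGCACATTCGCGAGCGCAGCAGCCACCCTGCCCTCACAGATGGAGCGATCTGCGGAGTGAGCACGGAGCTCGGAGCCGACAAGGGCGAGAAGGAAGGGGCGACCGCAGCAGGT
Slc3a2: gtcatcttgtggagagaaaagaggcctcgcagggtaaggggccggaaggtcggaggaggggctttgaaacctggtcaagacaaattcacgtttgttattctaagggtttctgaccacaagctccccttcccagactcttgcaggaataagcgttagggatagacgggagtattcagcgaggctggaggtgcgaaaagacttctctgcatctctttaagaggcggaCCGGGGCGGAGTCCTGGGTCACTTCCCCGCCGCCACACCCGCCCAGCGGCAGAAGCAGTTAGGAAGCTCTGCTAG
Slc2a12: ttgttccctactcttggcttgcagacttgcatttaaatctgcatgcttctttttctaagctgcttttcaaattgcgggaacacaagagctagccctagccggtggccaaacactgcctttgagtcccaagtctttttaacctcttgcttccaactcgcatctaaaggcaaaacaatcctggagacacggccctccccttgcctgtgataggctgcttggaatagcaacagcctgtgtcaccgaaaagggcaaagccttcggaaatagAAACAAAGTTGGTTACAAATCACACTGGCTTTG
Slc2a1: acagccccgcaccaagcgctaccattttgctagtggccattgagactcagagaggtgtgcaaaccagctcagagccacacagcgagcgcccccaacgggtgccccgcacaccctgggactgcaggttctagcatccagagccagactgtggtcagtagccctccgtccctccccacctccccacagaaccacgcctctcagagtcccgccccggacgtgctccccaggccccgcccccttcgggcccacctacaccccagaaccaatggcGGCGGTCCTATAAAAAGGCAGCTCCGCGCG

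The peaks enter these windows to different extents. Of the 300 bases, the peak covered 285 in Slc43a1, 192 in Slc7a8, 75 in Slc3a2, 33 in Slc2a12 and 30 in Slc2a1. In Slc43a1, Slc3a2 and Slc2a12 the window belongs to a start inside the gene span, and the Slc43a1 summit stood at -350 bases, before that start. In the others the summit lay 68 bases (Slc7a8), 151 bases (Slc3a2), 153 bases (Slc2a12) and 174 bases (Slc2a1) after the nearest start, beyond the window. The letters GGAC, the core of the most common m6A consensus, occur 3 times in the covered bases of Slc43a1 on the strand of the gene, and 0 times in those of the other 4. In the whole windows it occurs 3 times in Slc43a1, 2 times in Slc2a1, 1 time in Slc3a2 and 0 times in Slc7a8 and Slc2a12. On that strand GGAC is present in 65.6% of all 32851 whole windows, and on either strand, as GGAC or GTCC, in 87.7%. The covered parts are shorter than a window, so their counts cannot be set beside these shares. A match is a description and not a site.

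Within some genes, the folds of the peaks lay far apart. The intervals treat the background as known, so they leave out counting error in the input. In 16 of the 31 members with several peaks, the intervals of the highest and the lowest peak did not overlap. The peaks compared were picked by their fold, which favours such a gap. The same count was not made over all protein-coding genes, so it is no result about the carriers. The ratio of highest to lowest was 5.69 in Slc6a8, 5.13 in Slc7a8, 4.36 in Slc2a12, 4.32 in Slc3a2 and 3.83 in Slc6a6. In each of these 5 genes the lowest peak stood over a background of 16.9 or more, and the highest over a background of 11.1 or less. The part of this background in the difference was not tested.

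Proteins that carriers need at the membrane, and regulators of nutrient uptake and sensing, were read from a list of 36 genes. Of these, 27 carried a peak (75%, beside 55.7% of protein-coding genes), with a median of 8.44-fold at the highest peak, close to the 8.04-fold of all peak-carrying protein-coding genes. A peak of at least 10-fold was present in 9 of the 36, beside 17.5% of protein-coding genes. Bsg, which encodes basigin, the chaperone of MCT1 and MCT4, had 3 peaks of up to 9.98-fold (6.59 to 14.5), and Emb, for the related embigin, reached 5.24-fold from 8 fragments. Among regulators of GLUT4 traffic, Tbc1d4 reached 16.7-fold (11.0 to 24.6) from 24 fragments over 0.494, close to the genome-wide background of 0.462. Tbc1d1 reached 15.7-fold (12.7 to 19.1) from 94 fragments over 5.06. Of the arrestin genes that limit glucose uptake, Arrdc4 reached 12.0-fold (8.59 to 16.2) from 39 fragments over a background of 2.35. Txnip stood at 3.28-fold (2.76 to 3.87) from 138 fragments over 41.4, at summits that lay in another gene too. These 2 intervals do not overlap, and the part of the background in this difference was not tested.

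In the lysosomal amino acid sensing branch, which Slc38a9 feeds, Rptor reached 15.6-fold (12.4 to 19.3), Rragb 13.7-fold (8.51 to 21.0) and Mtor 10.7-fold (8.52 to 13.3). The Rragb peak, its only one, had 19 fragments at the genome-wide background of 0.462. In Mtor, 3 of the 4 summits lay in a second gene too. Rraga, Rragc and Rragd reached 8.56-fold, 8.24-fold and 5.56-fold. Lamtor1, Lamtor2, Lamtor4 and Mlst8 reached 9.80-fold, 8.44-fold, 7.34-fold and 5.26-fold, and Sesn2 and Sesn1 8.63-fold and 6.33-fold. Arl6ip5, whose product inhibits the glutamate carrier of Slc1a1, reached 15.1-fold (10.7 to 20.6). The sodium pump builds the gradient that Slc5a, Slc6a and Slc38a carriers use. Its subunit gene Atp1b1 reached 19.2-fold (13.1 to 27.1) from 30 fragments over a low background of 0.618. The peak of Atp1b3 stood at 3.23-fold (2.74 to 3.79) from 150 fragments over 45.7. Atf4, the transcription factor that induces amino acid carriers under starvation, reached 3.65-fold (3.05 to 4.34) from 129 fragments. No peak was listed in Cltrn, whose product escorts Slc6a19 to the membrane, or in Arl6ip1, Castor1, Castor2, Lamtor3, Lamtor5, Mlxipl and Sesn3.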

How the data were processed

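RNA of whole mouse uterus was read in 1 anti-m6A library and 1 input library. The submitters' processing notes name HISAT2 2.2.1, MACS3 3.0.0a7 and mm10, without settings. The authors' peak list of 38366 peaks gives a fold enrichment (a ratio to local background), −log10 p and −log10 q at each summit, and a display score, as deposited. The deposited score follows −log10 q and was not used. The total depth of the libraries is unknown.

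IP fragments (k) and background (b) per summit were recovered from the deposited fold, read as (k + 1)/(b + 1), and the Poisson p, within 0.001 of the deposited −log10 p at 100% of peaks. On 1962 simulated pileups 100% were recovered. Intervals cover counting error only, since fragments copied by PCR are not separate molecules.

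Peaks were linked to genes by summits inside gene spans of the RefSeq gene table (GRCm38.p6, as in mm10), leaving out 369 entries without a position on an assembled chromosome. Strand and start sites came from RefSeq promoter windows. No genome, exon or coding positions were used. Positions are counted from 1. Members and lists were chosen with earlier results of these data known. Named with values were members of at least 10-fold, the 3 highest per family, those with the most peaks, and listed carriers of endometrium, placenta and general nutrient supply. The remaining members are given more briefly, and a few genes are not reported here by name. Alternatives were peaks with −log10 q from 5 up, single-gene summits, overlap of 1 base or 50%, folds from 4 up, merged identical intervals, at least 20 IP fragments, the median fold per gene and other distances to an end. Leaving out Slc7a6os was added after the data were examined. Software was scipy 1.17.1, pandas 2.3.3, numpy 2.4.6 and matplotlib 3.10.9 under Python 3.11.15.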

Additional observations from a re-analysis of the deposited data

How the results depend on the processing

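The count of 59 carriers with a peak and their 124 peaks depended most on depth. With at least 20 IP fragments at the summit, 39 genes and 71 peaks were left, with 2 genes in Slc1a, 4 in Slc2a and 7 in Slc16a. The 20 genes lost include Slc2a4, Slc2a10, Slc1a6, Slc6a4 and Slc16a11, and the highest fold became 4.32 in Slc38a1 and 4.25 in Slc5a6. How many of all protein-coding genes this limit leaves was not computed. With single-gene summits, 1 of 2 Slc3a genes kept a peak, and the highest fold of Slc43a1, Slc6a8 and Slc5a2 fell below its interval. A −log10 q of at least 5 removed the peaks of Slc16a5, Slc2a4, Slc2a5, Slc2a9, Slc38a3 and Slc6a9. The median over genes, 7.47 with each gene's highest fold, became 6.04 with each gene's median fold. The share of summits close to a gene end, 29.8% at 1000 bases, was 17.7% at 500 bases and 48.4% at 2000 bases. A fold of at least 4 left 102 peaks, as did the limit on q, and single-gene summits left 109. Leaving out Slc7a6os, chosen after seeing the data, gave 58 of 102 genes with a peak. No paired analysis was possible because each group held 1 library, and for the same reason no replicate could be left out.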

Other observations

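Peaks whose summit lay outside every annotated gene were looked for within 5000 bases of the carriers, a choice made after the data were examined. There were 8 such peaks beside 5 genes. The same count was not made over all protein-coding genes, so it is no result about the carriers. Slc16a1 had 2 of them just before its start, with summits 847 and 235 bases away, of 6.09-fold (3.11 to 11.0) and 5.44-fold (2.69 to 10.1) from 9 and 8 IP fragments. Slc36a4 had 2 before its start, of 4.69-fold and 4.79-fold from 6 fragments each. Slc2a8 had 2 beyond its end, 2211 and 3372 bases away, of 5.51-fold (3.05 to 9.31) and 7.16-fold (4.20 to 11.5) from 12 and 15 fragments. Slc38a1 had 1 only 26 bases outside its span, of 6.84-fold (3.50 to 12.4) from 9 fragments, and Slc5a2 had 1 at 4736 bases, of 5.56-fold. The nearer Slc16a1 peak and the Slc38a1 peak extend into the gene span. All 8 rest on 15 fragments or fewer, and which transcripts they belong to was not tested.

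Beyond the protein-coding genes, 4 annotated pseudogenes or long non-coding RNA genes share a carrier prefix. Of these, Slc2a4rg-ps held 1 peak and Slc36a3os, Slc36a1os and Slc6a19os held none.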
